A study of Mus musculus with 6 samples.

Results

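The Ighv5 genes of the mouse immunoglobulin heavy-chain locus, apart from Ighv5-2, gave 15836 of the 228609 V(D)J sequences in 6 VDJ-seq libraries (6.93%). Members were all sequences whose first V gene call, with the allele removed, named an Ighv5 gene other than Ighv5-2. VDJ-seq captures rearranged heavy-chain joins from genomic DNA, so it counts joins and measures no RNA. The DNA was taken from spleens of C57BL/6 mice at an age of 12 weeks after magnetic removal of cells other than B cells, and no gene was altered and no treatment was given in any library according to the labels. The input DNA was titrated over 4 libraries (500 ng, then 1 µg, then 2.5 µg, then 5 µg), and a pair named Q5_Q5 and Q5_vent differed in the polymerases used. The labels state neither the DNA amount of that pair nor how many animals stand behind a library. With no RNA measured, the B cell label could not be set against marker genes, and the joins themselves are those of the B lineage.

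Each group was 1 library, so comparisons were made within libraries, each library giving 1 value. Values printed for all other V genes leave out every member, while each fit sets a gene against every V gene but itself. The libraries held 8704, 17055, 56006 and 112320 sequences along the titration, 15034 in Q5_Q5 and 19490 in Q5_vent. Members were 6.65% to 7.04% of a library. The library from 5 µg is the largest, and fits weighted by counts lean on it. The p-values below reflect the spread between these 6 libraries, and limma pools that spread over genes and weights it by counts. A small p can thus go with a wide spread in the gene itself. The spread may be technical, because nothing says that the libraries came from different animals. Intervals and count limits cover counting error only.

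A heavy-chain gene is assembled in developing B cells when the RAG recombinase joins a D gene to a J gene and then a V gene to that DJ unit. The bases at the junction form CDR3, the loop that does most of the antigen contact, and the terminal transferase adds untemplated N bases there. A join that keeps the reading frame and has no stop codon is productive: its protein is tested for pairing with the surrogate light chain in the pre-B cell receptor and later with light chains. An out-of-frame join makes no heavy chain and is carried along on the other allele, so it records how often a gene was joined without that test. The Ighv5 genes lie at the D-proximal end of the V gene cluster, interleaved with Ighv2 (Q52) genes, and are known for heavy use in fetal and early adult precursors and for members that encode self-reactive antibodies.

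The caller named 17 Ighv5 genes other than Ighv5-2. Of these, 11 had at least 100 sequences and held 15709 of the 15836 between them. The largest were Ighv5-4 with 3469, Ighv5-17 with 3402 and Ighv5-16 with 2287 sequences, followed by Ighv5-6 with 1736, Ighv5-12 with 1380 and Ighv5-9-1 with 1201. Ighv5-9 had 683, Ighv5-15 had 628, Ighv5-12-1 had 411, Ighv5-1 had 266 and Ighv5-6-4 had 246. The other 6 names, Ighv5-21 (53 sequences), Ighv5-6-3 (27), Ighv5-9-4 (23), Ighv5-12-4 (11), Ighv5-6-5 (11) and Ighv5-6-2 (2), held 127 sequences and are not tested. The RefSeq annotation of GRCm38.p6 lists 11 of the 17 names on chromosome 12, 9 as V gene segments and Ighv5-1 and Ighv5-21 as V segment pseudogenes. From the D side the tested ones are Ighv5-1 (chr12:113572929-113573222), Ighv5-4 (chr12:113597448-113597741), Ighv5-6 (chr12:113625508-113625801), Ighv5-9 (chr12:113661771-113662228) and Ighv5-12 (chr12:113702126-113702419). Farther out lie Ighv5-9-1 (chr12:113736113-113736406), Ighv5-15 (chr12:113826648-113826941), Ighv5-16 (chr12:113838528-113838821) and Ighv5-17 (chr12:113859149-113859442). The 9 RefSeq pseudogenes of the family with no first call were named in no call at all. The remaining 6 names, Ighv5-12-1, Ighv5-6-2 to Ighv5-6-5 and Ighv5-9-4, are absent from that annotation and took 720 sequences (4.55% of the members). Calls of 2054 member sequences named more than 1 gene. Every Ighv5-12-1 call also named other genes, 65.0% of them Ighv5-6 and Ighv5-6-1, and its V alignments had a median of 71 bases against 174 in all other V genes. Among Ighv5-6 calls 71.4% also named Ighv5-6-1. Counts under Ighv5-12-1 and Ighv5-6 are therefore uncertain as to the gene. Ighv5-6-4 calls named a single gene in 89.0%, but its V alignments had a median of 64 bases. Mismatches to the called gene were found in 40.7% of its sequences, against 7.88% in all other V genes, so its counts are uncertain too. Ighv5-15 had mismatches in 22.9% of its sequences.

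The last germline bases of the genes are shown because they open CDR3 and set the members apart by few letters. The printed bases were read from sequences of these libraries with no mismatch to the called gene. They cover bases 265 to 294 of the V gene on its coding strand, with those that enter CDR3 in capitals. Ighv5-6, Ighv5-12 and Ighv5-12-1 have the same 30 letters as Ighv5-4, Ighv5-6-4 has those of Ighv5-9-1, and Ighv5-9-4 has those of Ighv5-17.
Ighv5-4: gaggacacagccatgtattactgtGCAAGA
Ighv5-9-1: gaggacacagccatgtattactgtACAAGA
Ighv5-17: gaggacacggccatgtattactgtGCAAGG
Ighv5-15: gaggacacggccatgtattactgtGCAAGA
Ighv5-9: gaggacacggccttgtattactgtGCAAGA
Ighv5-16: gaggacacagccacgtattactgtGCAAGA
Ighv5-1: gaggacacggccatgtattactgtTTGAGA

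The 10 members with all 294 bases covered were 68.7% to 95.6% identical in pairs, with a median of 87.4%. Ighv5-4 and Ighv5-6 were the most alike of the 45 pairs, with 13 of 294 bases different. Ighv5-16 was 81.0% to 86.7% identical to the members other than Ighv5-21. Bases 1 to 294 of these 3 genes are shown because they are the closest pair and a more distant member. Bases that differ from Ighv5-4 are in capitals in Ighv5-6 and Ighv5-16.
Ighv5-4: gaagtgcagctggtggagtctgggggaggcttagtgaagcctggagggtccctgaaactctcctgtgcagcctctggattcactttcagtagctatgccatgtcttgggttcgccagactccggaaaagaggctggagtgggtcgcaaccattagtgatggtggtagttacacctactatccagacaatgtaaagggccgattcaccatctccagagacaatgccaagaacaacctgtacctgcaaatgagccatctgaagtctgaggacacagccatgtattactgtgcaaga
Ighv5-6: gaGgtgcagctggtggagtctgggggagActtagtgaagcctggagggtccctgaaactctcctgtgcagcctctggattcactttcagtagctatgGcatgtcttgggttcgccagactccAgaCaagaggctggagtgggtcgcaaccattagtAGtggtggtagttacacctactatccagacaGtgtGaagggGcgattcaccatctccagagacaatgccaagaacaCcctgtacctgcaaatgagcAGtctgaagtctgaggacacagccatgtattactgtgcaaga
Ighv5-16: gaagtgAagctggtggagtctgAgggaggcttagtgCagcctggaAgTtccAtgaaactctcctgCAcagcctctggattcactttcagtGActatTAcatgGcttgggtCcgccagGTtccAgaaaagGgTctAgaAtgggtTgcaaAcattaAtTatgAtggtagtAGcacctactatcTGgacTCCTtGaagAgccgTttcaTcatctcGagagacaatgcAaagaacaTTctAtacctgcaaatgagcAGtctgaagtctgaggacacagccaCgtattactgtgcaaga

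Ighv5-1, which RefSeq calls a pseudogene, has an in-frame TAA at base 178. Ighv5-21, also called a pseudogene, has an in-frame TGA at base 199. These windows are shown because they bear on the productive counts of both genes, with the stop codon in capitals.
Ighv5-1: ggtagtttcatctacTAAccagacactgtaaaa
Ighv5-21: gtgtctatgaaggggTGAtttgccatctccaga

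Ighv5-4 and Ighv5-17 were used most. Ighv5-4 took 1.39% to 1.59% of the sequences of a library (mean 1.49% ± 0.0633) and Ighv5-17 took 1.41% to 1.51% (1.46% ± 0.0402; SD, n = 6 for both), so the levels of these neighbours in rank overlapped. Ighv5-16 took 0.982% ± 0.0922, Ighv5-6 0.744% ± 0.0417, Ighv5-12 0.601% ± 0.0593 and Ighv5-9-1 0.510% ± 0.0457 of a library. Each of these means lay below the one before it by more than the larger of both SDs, although the libraries of Ighv5-12 (0.534% to 0.672%) and Ighv5-9-1 (0.425% to 0.544%) overlapped. Ighv5-9 (0.300% ± 0.0477) and Ighv5-15 (0.282% ± 0.0351) overlapped, and so did Ighv5-6-4 (0.121% ± 0.0373) and Ighv5-1 (0.116% ± 0.0280). Ighv5-12-1 lay between these pairs at 0.183% ± 0.0180.

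The first question was how often each gene was used in productive joins relative to out-of-frame joins. Over the 6 libraries the members held 11072 of 167455 productive joins (6.61%) and 4082 of 50909 out-of-frame joins (8.02%).  Ighv5-17, Ighv5-9-1, Ighv5-6-4, Ighv5-9 and Ighv5-16 took larger shares of productive than of out-of-frame joins, while Ighv5-1, Ighv5-12, Ighv5-15, Ighv5-4, Ighv5-12-1 and Ighv5-6 took smaller ones. Each of the 11 differed at an adjusted p under 0.05, by limma on 1 log2 ratio of shares per library with Benjamini-Hochberg adjustment over all 115 V genes tested. Of all V genes tested, 95.7% were called, 49.6% higher and 46.1% lower, so 5 members higher and 6 lower is near the background. Without the 5 µg library 3 members were called higher. With all 6 libraries the median log2 ratio was -0.40 over the members and 0.17 over all genes.

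Ighv5-17 took 1.61%, 1.70% and 1.74% of productive joins (lowest, median and highest library), against 0.724%, 0.891% and 0.994% of out-of-frame joins. All 6 productive shares lay above all out-of-frame shares, and the log2 ratio was 0.97 (SE 0.07, adjusted p = 6.51e-17). Ighv5-9-1 took 0.474%, 0.599% and 0.627% of productive joins, against 0.203%, 0.306% and 0.430% of out-of-frame joins. Its classes did not overlap either, and the log2 ratio was 0.75 (SE 0.11, adjusted p = 4.30e-08). Ighv5-9 had 0.225%, 0.336% and 0.395% of productive joins, against 0.145%, 0.212% and 0.394% of out-of-frame joins. Here the ranges overlapped, with a log2 ratio of 0.51 (SE 0.15, adjusted p = 1.22e-03) that was above 0 in 5 of 6 libraries. Ighv5-16 had 0.884%, 1.03% and 1.15% of productive joins, against 0.733%, 0.922% and 1.20% of out-of-frame joins. Its ranges overlapped almost wholly, and its log2 ratio of 0.16 (SE 0.07, adjusted p = 0.0305) was above 0 in 4 libraries. Without weights the adjusted p of Ighv5-16 was 0.19. Ighv5-6-4, a name with 31 out-of-frame joins in all, had a log2 ratio of 0.87 (SE 0.26, adjusted p = 1.78e-03). By the sign-flip permutation test neither Ighv5-9 nor Ighv5-6-4 was called (adjusted p = 0.0998 for both).

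Ighv5-4 was the reverse of Ighv5-17. It took 1.11%, 1.26% and 1.33% of productive joins, against 1.64%, 2.37% and 2.43% of out-of-frame joins, the highest out-of-frame share of any member. The classes did not overlap, and the log2 ratio was -0.87 (SE 0.05, adjusted p = 2.87e-19). Ighv5-12 had 0.381%, 0.416% and 0.458% of productive joins, against 0.973%, 1.11% and 1.30% of out-of-frame joins. Ighv5-15 had 0.168%, 0.201% and 0.268% of productive joins, against 0.430%, 0.486% and 0.660% of out-of-frame joins. Both pairs of ranges stood apart in all 6 libraries. The log2 ratio was -1.49 for Ighv5-12 (SE 0.08, adjusted p = 1.46e-21) and -1.33 for Ighv5-15 (SE 0.11, adjusted p = 7.81e-15). Ighv5-6, the closest relative of Ighv5-4, had 0.675%, 0.697% and 0.763% of productive joins, against 0.788%, 0.878% and 0.992% of out-of-frame joins. It was lower in 6 of 6 libraries by a smaller log2 ratio of -0.40 (SE 0.07, adjusted p = 1.36e-06). Ighv5-12-1 had a log2 ratio of -0.51 (SE 0.16, adjusted p = 3.32e-03) and was lower in 5 of 6 libraries. It was at -0.85 without the 5 µg library, and its call was lost without weights (adjusted p = 0.071) and by the sign-flip permutation test (adjusted p = 0.132).

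**Figure D1:**
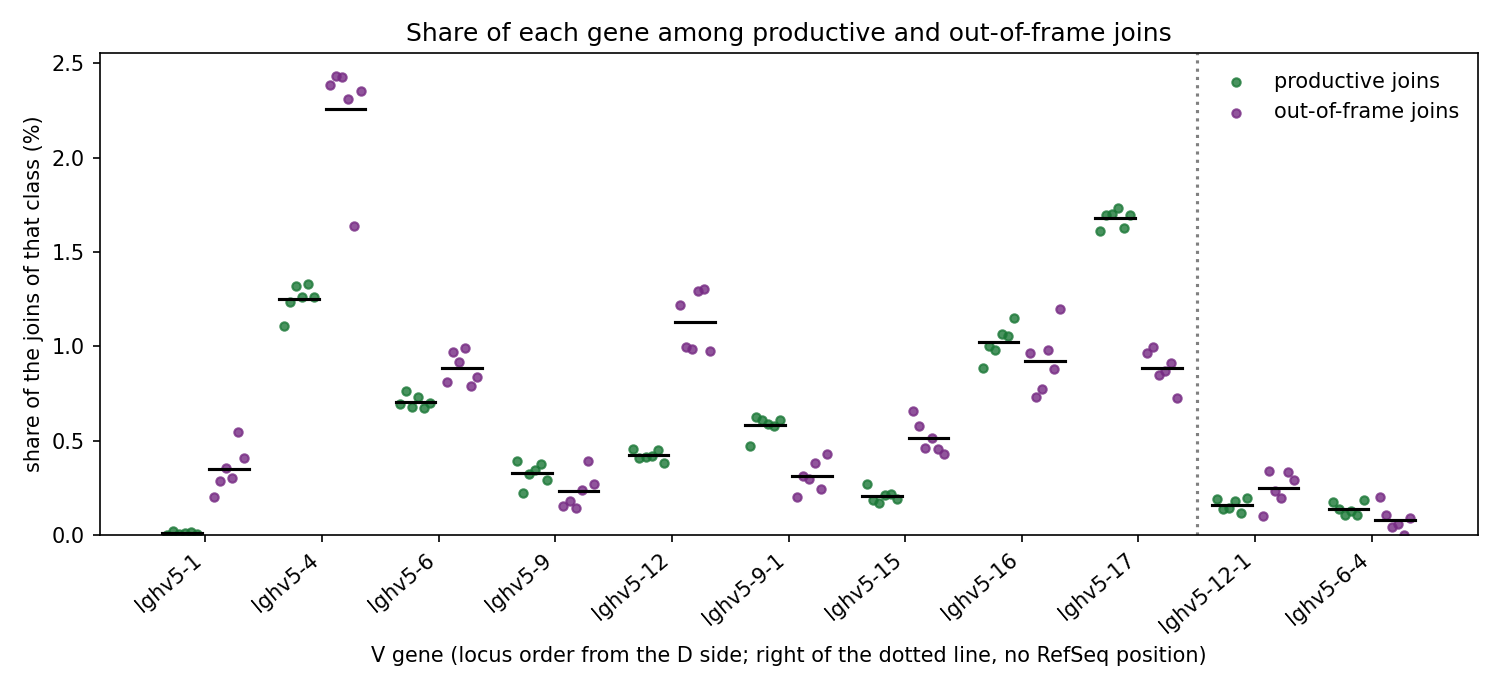
Share of the productive (green) and out-of-frame (purple) joins of a library held by each Ighv5 gene with at least 100 sequences, in percent, with genes in locus order and the names without a RefSeq position at the right. Points are the 6 libraries and black lines their means. For Ighv5-4 the out-of-frame points (1.64% to 2.43%) lie above the productive ones (1.11% to 1.33%), and for Ighv5-17 the productive points lie above.

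Ighv5-1 had 19 productive, 77 in-frame and non-productive, and 170 out-of-frame joins. It took 0%, 0.0102% and 0.0241% of productive joins, against 0.203%, 0.327% and 0.546% of out-of-frame joins. The log2 ratio was -4.57 (SE 0.31, adjusted p = 2.85e-17). None of the 19 productive joins had a V alignment that reached the germline stop codon at base 178, whereas 63 of the 77 in-frame non-productive joins did (81.8%). Ighv5-21 had 2 productive joins, neither of which reached its stop codon, against 14 in-frame non-productive and 37 out-of-frame joins. A join whose sequence holds a stop codon cannot be flagged productive, so the flag fixed these absences in advance. It also bears on the log2 ratio of Ighv5-1 and on its place among the members called lower. Ighv5-2, the neighbour of Ighv5-1 and the most D-proximal functional gene, had 193 productive and 3327 out-of-frame joins and a log2 ratio of -5.80.

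**Figure D2:**
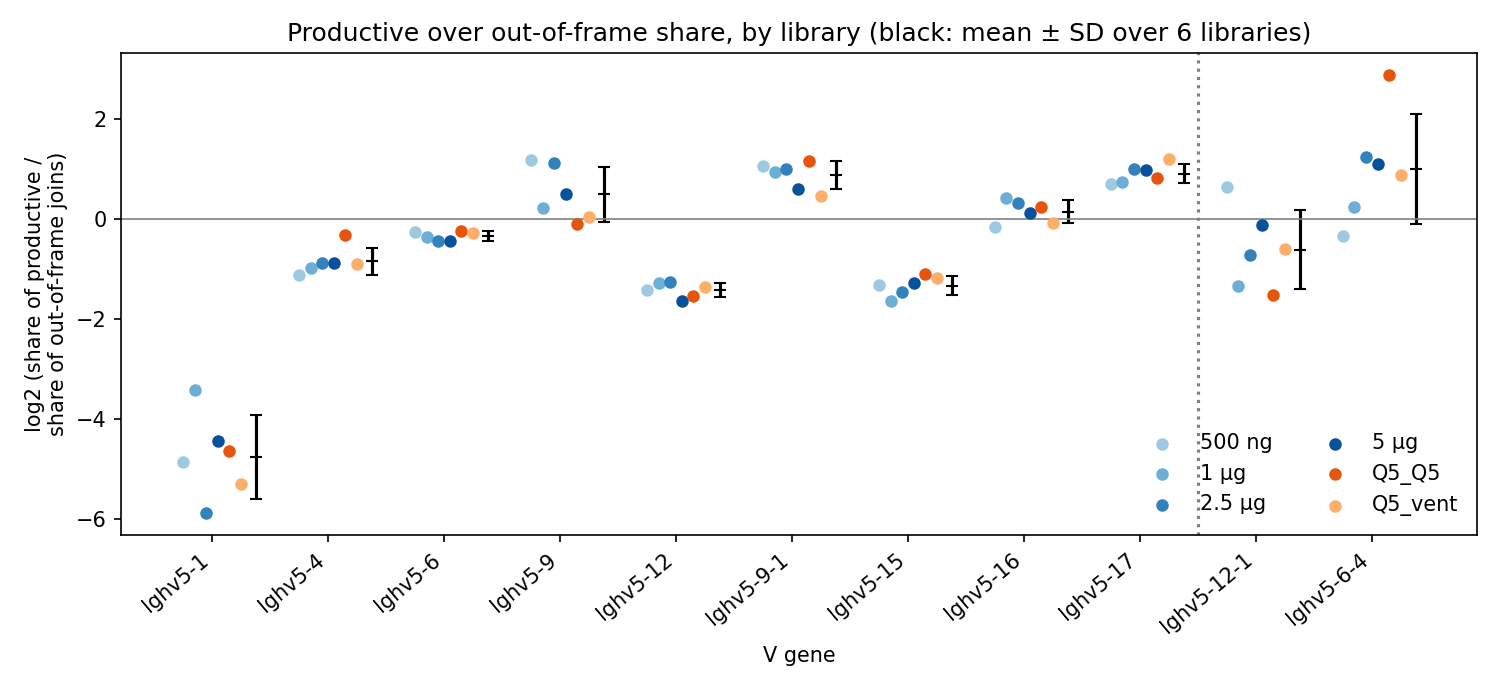
Log2 of each gene's share of productive joins over its share of out-of-frame joins in each of the 6 libraries (colours), with the mean ± SD in black and a pseudocount of 0.5. The ratio is above 0 in all libraries for Ighv5-17 and Ighv5-9-1 and below 0 in all libraries for Ighv5-1, Ighv5-4, Ighv5-6, Ighv5-12 and Ighv5-15. The Q5_Q5 point of Ighv5-4 (-0.31) stands above the other 5.

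The members as one row took 6.33%, 6.53% and 6.72% of productive joins, against 7.60%, 8.03% and 8.25% of out-of-frame joins. These ranges did not overlap, and the log2 ratio was -0.28 (SE 0.03, adjusted p = 4.43e-16 by limma over 16 V families). Of the 16 families 93.8% were called, so the call itself is at the background. Ighv2, whose genes lie among them, had a log2 ratio of -1.35 (SE 0.03).

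The second question was how often an in-frame join was not productive, which in these files means that it carried a stop codon. Among all in-frame joins the members had 5.80% of this kind and all other V genes 5.76%. Of the 11 members tested, 4 were higher and 3 lower than all other V genes by limma on log2 odds ratios, against 83.5% called, 44.3% higher and 39.1% lower, among all V genes. Ighv5-1, whose germline bases hold a stop codon, had 60.0%, 81.2% and 100% such joins (lowest, median and highest library). Ighv5-12 had 10.1%, 11.3% and 13.8%, against 5.17%, 5.86% and 6.15% in all other V genes. The ranges did not overlap, and the log2 odds ratio was 1.08 (SE 0.15, adjusted p = 2.61e-10). Ighv5-15 had 0%, 10.6% and 14.8%, with a log2 odds ratio of 1.12 (SE 0.21, adjusted p = 2.36e-06). Neither gene has a stop codon in its germline bases up to base 294. Ighv5-17 had 1.92%, 3.26% and 3.72%, below all other V genes in every library, with a log2 odds ratio of -0.81 (SE 0.13, adjusted p = 7.70e-08). Ighv5-9-1 (-0.75) and Ighv5-16 (-0.39) were also lower, and Ighv5-4 (0.38) was higher, but alternatives ended these 3 calls, with adjusted p up to 0.175, 0.121 and 0.338 in that order. Without the 5 µg library Ighv5-9-1 was at -0.42, and without Q5_Q5 Ighv5-4 was at 0.24. Without weights the call of Ighv5-15 was lost too (0.81, adjusted p = 0.067).

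The third question concerned the J partner. J genes supply the end of CDR3 and the framework after it, and in mice Ighj1 and Ighj4 bring longer coding ends than Ighj2. Each V gene was compared with all other V genes in the same library, in percentage points of J use, among productive and among out-of-frame joins. In productive joins 17 of the 40 combinations of member and J gene were called by limma, against 53.4% of all combinations. In out-of-frame joins 0 of 40 were called, against 3.19% of all combinations, and 6 of 40 had an unadjusted p under 0.05. The productive minus out-of-frame difference was itself called for 10 of 36 combinations, against 30.9% of all. These shares are below or near the background, and over all joins, as log2 odds, 20 of 44 were called, against 40.7%.

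Ighv5-15 had the largest J skew among the members. Its productive joins used Ighj4 in 41.7%, 61.2% and 70.6% (lowest, median and highest library), against 13.3%, 24.2% and 30.8% of its out-of-frame joins. All productive values lay above all out-of-frame values. Productive joins of V genes outside the members used Ighj4 in 27.8% to 29.4%. In the fit Ighv5-15 stood 30.5 points above every V gene but itself (SE 2.6, adjusted p = 5.80e-27, higher in 6 of 6 libraries). Its out-of-frame joins stood 1.89 points above those of all other V genes (SE 2.46, adjusted p = 0.853). The productive minus out-of-frame difference was 28.9 points (SE 3.6, adjusted p = 1.24e-12). Ighj2 and Ighj3 were used less: Ighv5-15 was 16.9 points below all other V genes for Ighj2 (SE 2.1) and 12.1 points below for Ighj3 (SE 2.1) in productive joins. Part of this came from 1 clone described below, and with 1 count per clone the Ighj4 difference was 21.6 points in productive joins and 20.1 points between productive and out-of-frame joins.

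Ighv5-16 differed by a low use of Ighj3. The J gene made up 8.59%, 9.67% and 17.1% of its productive joins, against 20.7%, 27.4% and 32.2% of its out-of-frame joins. All other V genes used Ighj3 in 21.6% to 24% of productive joins, above every library's value for Ighv5-16. The productive difference was -12.9 points (SE 0.9, adjusted p = 1.64e-06), and the out-of-frame difference was -0.0268 points (SE 2.1, adjusted p = 0.990). The difference between both classes was -12.8 points (SE 2.2, adjusted p = 3.31e-05) and had an adjusted p of 0.062 without weights. Ighj1 was used more in its place, at 31.2% of productive joins over the 6 libraries against 18.3% of out-of-frame joins, 11.6 points above all other V genes (SE 1.0).

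Ighv5-12 also favoured Ighj4 in productive joins, at 31.0%, 41.2% and 47.1%, against 9.30%, 18.5% and 26.2% of its out-of-frame joins. It used Ighj2 in 5.88%, 13.6% and 24.1% of productive joins, against 26.3%, 32.1% and 48.8% of out-of-frame joins. Neither pair of ranges overlapped. The productive minus out-of-frame difference was 13.4 points for Ighj4 (SE 2.4, adjusted p = 6.22e-07) and -12.9 points for Ighj2 (SE 2.6, adjusted p = 9.48e-05). Among productive joins Ighv5-17 was 6.49 points higher for Ighj4 (SE 0.88) and 4.34 points lower for Ighj2 (SE 0.83), and Ighv5-9-1 was 4.48 points higher for Ighj4 (SE 1.5). Without weights the adjusted p was 0.085 for Ighv5-17 with Ighj2 and 0.132 for Ighv5-9-1 with Ighj4. Ighv5-4 (-5.16 points, SE 1.02) and Ighv5-9 (-8.32 points, SE 2.01) were lower for Ighj4, and without the 5 µg library Ighv5-9 was at -4.79 points (adjusted p = 0.202). The members as one row were 2.53 points higher for Ighj4 (SE 0.37, adjusted p = 6.33e-05) and 3.54 points lower for Ighj3 (SE 0.41, adjusted p = 1.14e-04) in productive joins, while Ighv2 was 17.1 points higher for Ighj4 (SE 0.4). Of the 16 families 81.2% were called for Ighj4 and 75% for Ighj3.

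**Figure D3:**
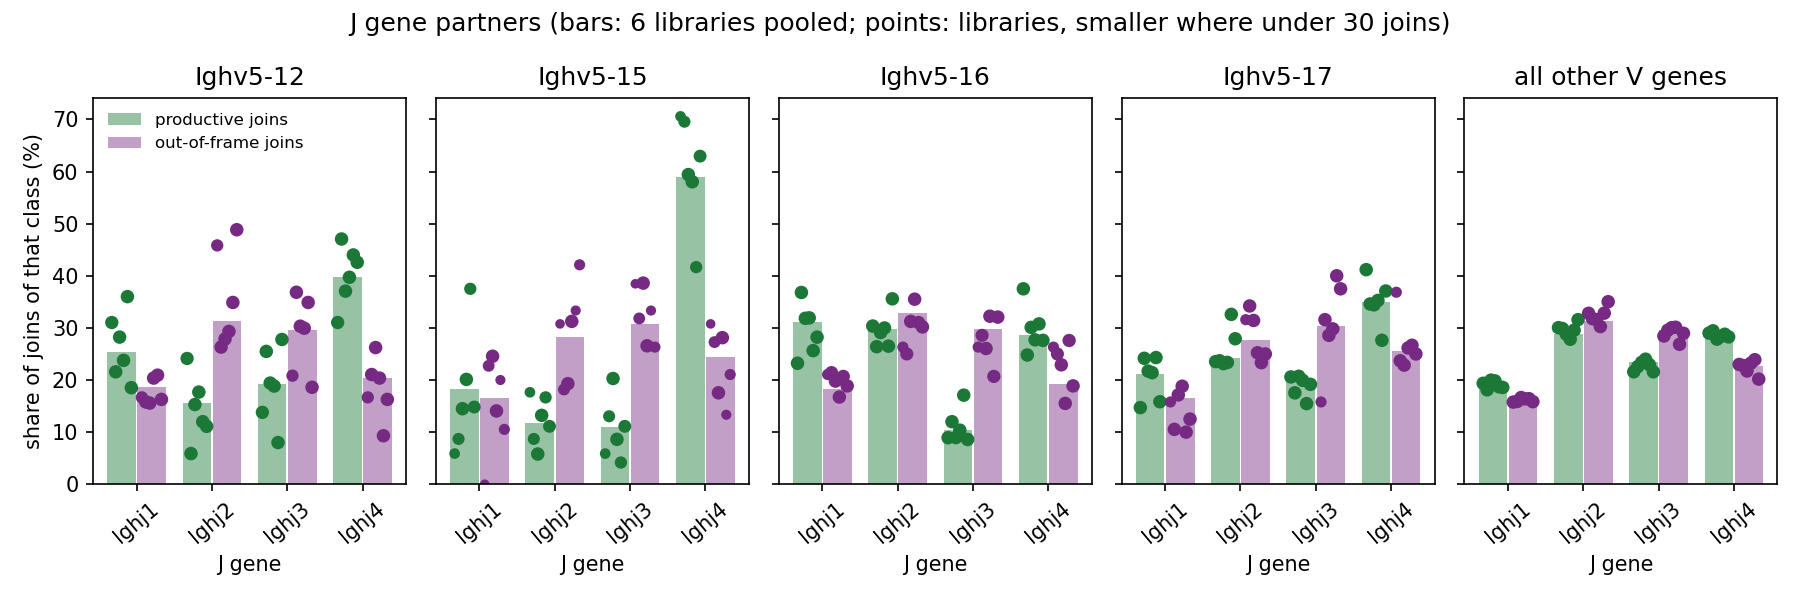
J gene use of Ighv5-12, Ighv5-15, Ighv5-16, Ighv5-17 and all other V genes, as percent of productive (green) and out-of-frame (purple) joins. Bars are the 6 libraries pooled, points are libraries, and points are smaller where a library had under 30 joins of that kind. Productive Ighj4 joins of Ighv5-15 reach 59.0% pooled against 24.4% out-of-frame, and productive Ighj3 joins of Ighv5-16 are 10.4% against 29.8% out-of-frame.

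For D partners, more calls among the members came from out-of-frame than from productive joins. D genes fall into the DFL16 family (Ighd1), at the V-proximal end of the D cluster, the DSP2 family (Ighd2) behind it, DST4 (Ighd3) and the J-proximal DQ52 (Ighd4). In out-of-frame joins 9 of 40 combinations of member and D family were called by limma, against 12.5% of all combinations. In productive joins 3 of 40 were called, against 27.6%, and 4 of 36 for the difference between both classes, against 13.5%. Over all joins, as log2 odds, 11 of 44 were called, against 28.9%. Of the members, 4 were low in DFL16 in out-of-frame joins, Ighv5-1, Ighv5-4, Ighv5-6 and Ighv5-12-1, against 7.84% of all V genes called lower for DFL16. The same 4 were high in DSP2, against 8.82% called higher. DFL16 and DSP2 made up 35.0% and 55.6% of the members' out-of-frame D calls, so a low share of one largely entails a high share of the other. The 9 calls above count these 4 genes under both families. Every Ighv5-12-1 call also named other genes, 65.0% of them Ighv5-6 and Ighv5-6-1, so these 4 names may not be separate genes. Ighv5-16 was low in DST4, at 1.35% of its out-of-frame joins against 4.51% in all other V genes, a call lost with any 1 library left out.

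Ighv5-4 had the most out-of-frame joins of the members, 1177. DFL16 made up 25.6%, 28.3% and 39.1% of its out-of-frame joins with a D call (lowest, median and highest library), against 39.7%, 40.4% and 41.2% in all other V genes. The highest value was in the 500 ng library, and every library lay below the other V genes of the same library. The difference was -12.8 points (SE 1.4, adjusted p = 4.13e-17). In its productive joins DFL16 made up 35.6%, 42.5% and 45.7%, against 42.3% to 43.6% in all other V genes. The productive minus out-of-frame difference, relative to all other V genes, was 12.9 points for DFL16 (SE 1.7, adjusted p = 1.58e-11) and -14.4 points for DSP2 (SE 1.8, adjusted p = 8.65e-13). Without weights the DFL16 difference was 9.48 points and its call was lost (adjusted p = 0.204). Ighv5-1 differed by -20.7 points for DFL16 in out-of-frame joins (SE 3.7, adjusted p = 9.20e-07, lower in 5 of 6 libraries), with 158 joins in all. Ighv5-6 differed by -8.38 points (SE 2.21, adjusted p = 1.75e-03, lower in 6 of 6) and Ighv5-12-1 by -13.2 points (SE 4.4, adjusted p = 0.0178, lower in 4 of 6). Without weights the adjusted p was 0.078 for Ighv5-4, 0.096 for Ighv5-1, 0.11 for Ighv5-6 and 0.19 for Ighv5-12-1. Of the 9 calls in out-of-frame joins, 3 were made without the 2.5 µg library and 3 without the 5 µg library. Ighv5-12-1 and Ighv5-1 had 117 and 170 out-of-frame joins in all, and these tests need at least 100. Part of the fall may thus be genes no longer tested rather than differences that vanished.

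The 9 members with a position and enough out-of-frame joins differed in DFL16 use along the locus. From the D side, the pooled DFL16 share of out-of-frame joins was 19.6% in Ighv5-1, 27.7% in Ighv5-4, 32.0% in Ighv5-6 and 38.2% in Ighv5-9. Farther out it was 40.4% in Ighv5-12, 34.7% in Ighv5-9-1, 41.2% in Ighv5-15, 45.3% in Ighv5-16 and 41.6% in Ighv5-17. These genes span 286 kb from the start of Ighv5-1 to that of Ighv5-17. Across the 9 genes Spearman's rho between position and DFL16 share was 0.93, a description of genes that share the same libraries. It was 0.36 over all 98 V genes with a position and at least 100 such joins, and 0.16 over the 82 that lie beyond Ighv5-17. Nearby Ighv2 genes also rose in part: Ighv2-2 had 28.4% DFL16 at 15.3 kb, Ighv2-3 34.7% at 38.3 kb and Ighv2-5 37.0% at 113 kb. Ighv2-9-1 had 43.1% at 197 kb and Ighv2-9 39.6% at 306 kb. Ighv2-4 (55.5% at 80.4 kb) and Ighv2-6 (28.6% at 144 kb) stood off this order. As one row, Ighv2 differed from all other families by -7.26 points for DFL16 in out-of-frame joins (SE 0.71), and the members by -5.72 points (SE 0.80). Low DFL16 use was thus not particular to the members. Ighv5-2, at 5.58 kb, had 23.0%. The members' share of out-of-frame joins did not go along with position (rho -0.017 over the 9 genes).

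**Figure D4:**
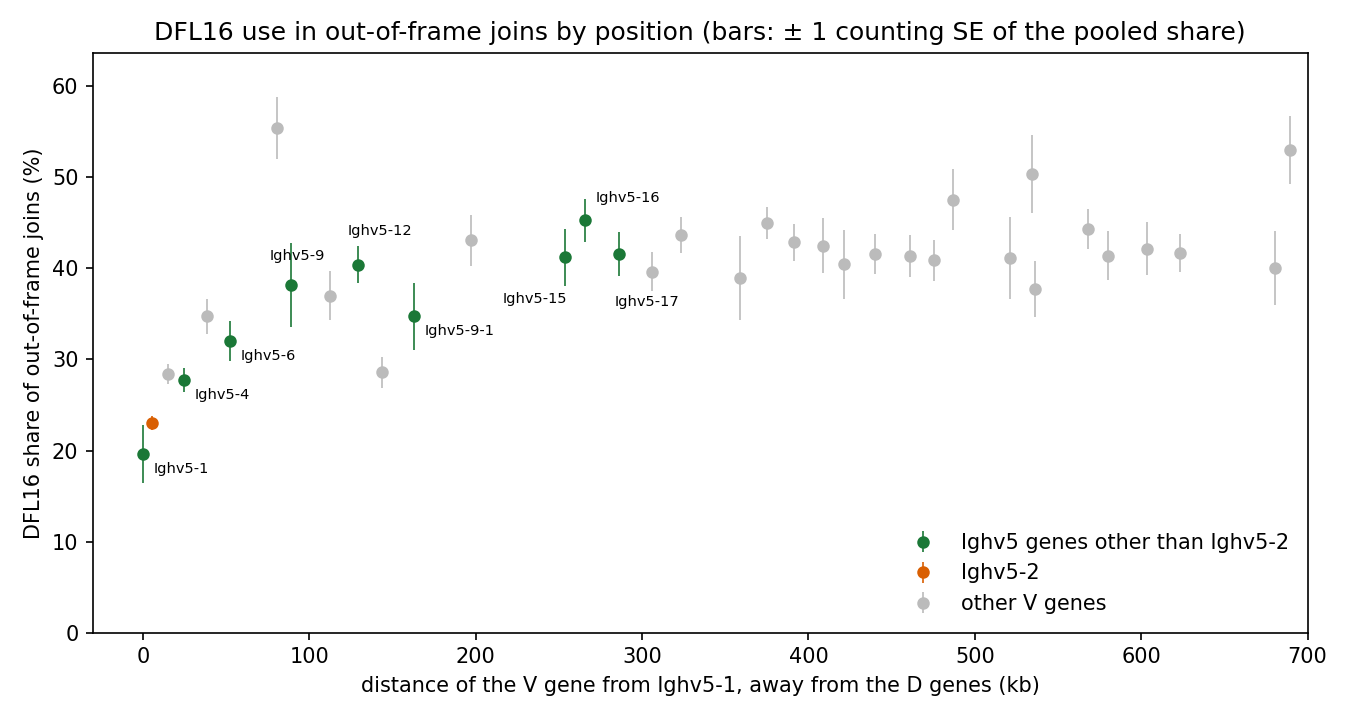
DFL16 share of out-of-frame joins with a D call, pooled over 6 libraries, against distance from Ighv5-1 in kb, for Ighv5 genes other than Ighv5-2 (green, named), Ighv5-2 (orange) and other V genes (grey), with bars of ± 1 counting SE. V genes farther than 700 kb are not drawn. The share is 19.6% at Ighv5-1 and 45.3% at Ighv5-16, and grey points among the members lie on both sides.

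The fourth question was the length of CDR3. Productive joins of the members had a mean CDR3 of 38.05, 38.44 and 38.88 bases (lowest, median and highest library), against 37.79, 37.86 and 37.95 bases in all other V genes. The members were longer in 6 of 6 libraries, by 0.74 bases (SE 0.07, adjusted p = 3.56e-17 by limma over 16 families, of which 87.5% were called). As one row, the members were close to all other V genes in added bases around the D gene. Their productive joins had 4.59 ± 0.057 bases before and 3.17 ± 0.029 after D (SD, n = 6). All other V genes had 4.61 ± 0.021 and 3.19 ± 0.017 (SD, n = 6). Single genes differed before D, where all other V genes ranged from 4.58 to 4.64 bases over the libraries. Ighv5-16 (5.17 to 5.96) and Ighv5-9-1 (5.34 to 5.92) lay wholly above. Ighv5-4 (3.80 to 4.50), Ighv5-9 (3.16 to 4.29) and Ighv5-17 (4.15 to 4.38) lay wholly below. These gene differences were not tested. Out-of-frame joins of the members averaged a CDR3 of 37.5, 38.2 and 38.5 bases, against 38.4, 38.5 and 38.9 bases in all other V genes.

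By gene, 9 of 10 members were called for productive CDR3 length, 7 longer and 2 shorter, against 53.3% of all V genes called, 26.2% longer and 27.1% shorter. The median difference was 1.23 bases over the members and 0.0383 over all genes. Ighv5-9-1 had 39.0, 39.4 and 39.6 bases and was 1.26 bases longer than all other V genes in the fit (SE 0.17, adjusted p = 2.11e-05). Ighv5-6 had 38.5, 39.1 and 39.9 bases and was 1.38 bases longer (SE 0.16, adjusted p = 6.01e-06). Both lay above the other V genes in 6 of 6 libraries. Ighv5-4 had 37.8, 38.6 and 39.5 bases and was 1.21 bases longer (SE 0.19, adjusted p = 8.31e-05), in 5 of 6 libraries. Ighv5-12 was 1.30 bases longer (SE 0.32), Ighv5-16 0.75 bases (SE 0.18), and the uncertain names Ighv5-12-1 and Ighv5-6-4 by 2.00 (SE 0.34) and 2.81 bases (SE 0.49). Ighv5-17 was shorter (-0.32 bases, SE 0.11, adjusted p = 0.0184), and Ighv5-9 was not called (0.31 bases, SE 0.32, adjusted p = 0.434). Without weights the calls of Ighv5-4, Ighv5-16 and Ighv5-17 were lost (adjusted p = 0.081, 0.10 and 0.094 in that order), and with calls naming a single gene that of Ighv5-6 was lost (0.70 bases, adjusted p = 0.069).

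Ighv5-15 had 32.5, 36.1 and 37.1 bases and a difference of -1.46 bases (SE 0.40, adjusted p = 5.58e-03). With 1 count per clone this became -0.06 bases (adjusted p = 0.92), so the call was lost when repeated copies were counted once. In out-of-frame joins the direction turned for 4 genes, with Ighv5-6 at -1.25 bases, Ighv5-12-1 at -1.32, Ighv5-9-1 at -0.63 and Ighv5-4 at -0.33 bases.

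**Figure D5:**
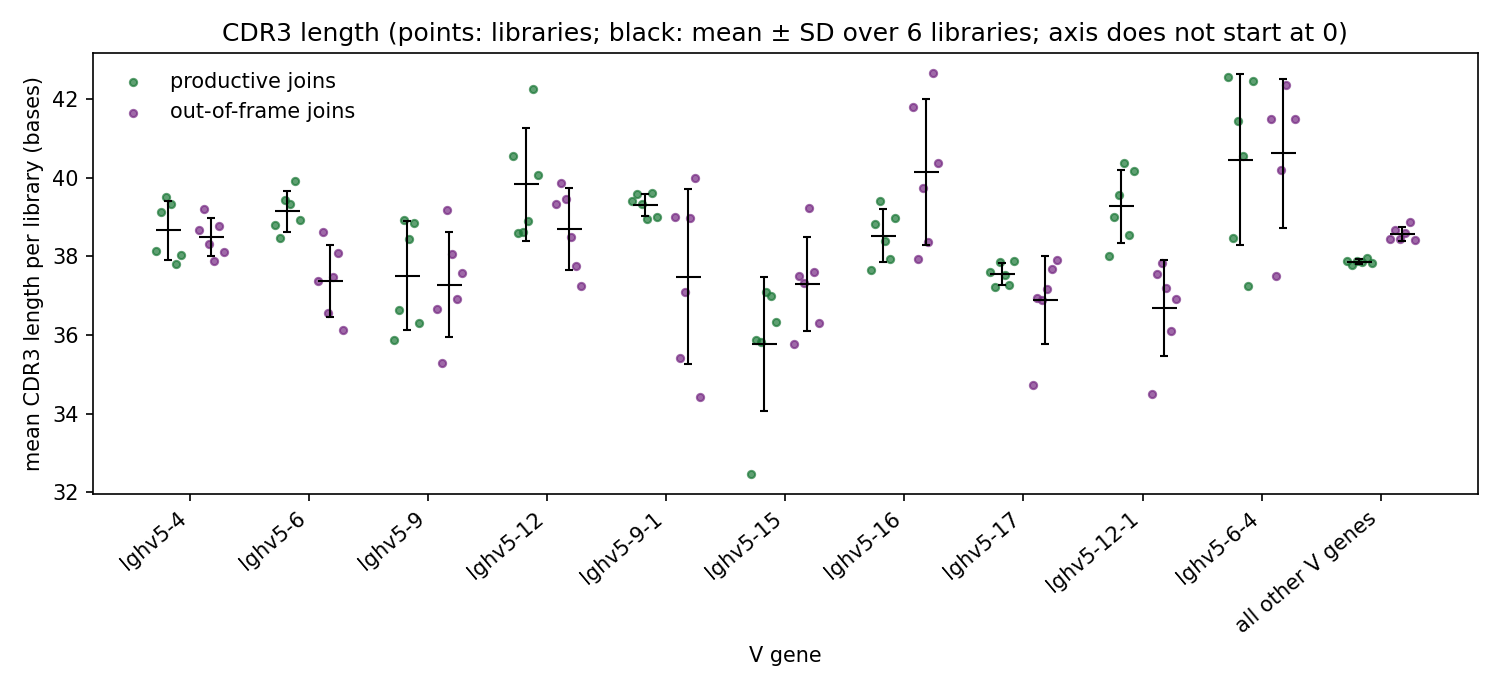
Mean CDR3 length in bases per library (points) with mean ± SD over 6 libraries (black) for productive (green) and out-of-frame (purple) joins of each member and of all other V genes. The length axis does not start at 0. Productive means of Ighv5-6 and Ighv5-9-1 lie above those of all other V genes in all 6 libraries, and the 500 ng point of Ighv5-15 lies at 32.5 bases.

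Joins of the members were almost all seen once. A clone, defined by identical CDR3 bases with 1 V gene and 1 J gene, numbered 15326 among the 15836 sequences, and 98.1% of clones had 1 sequence. Of the clones 165 were found in at least 2 libraries (1.08%) and 2 in all 6. The CDR3 bases of the 5 clones found in most libraries are shown because they were the joins that recurred across DNA amounts and polymerases, with the bases that match the V gene in capitals.
Ighv5-15 with Ighj4: GCAAGACAtgggggttctgctatggactac
Ighv5-17 with Ighj1: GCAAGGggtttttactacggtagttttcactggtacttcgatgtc
Ighv5-17 with Ighj4: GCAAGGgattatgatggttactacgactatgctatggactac
Ighv5-6 with Ighj2: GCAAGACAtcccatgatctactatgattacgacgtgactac
Ighv5-9-1 with Ighj4: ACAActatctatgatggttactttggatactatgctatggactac

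The Ighv5-15 clone had 69 copies with 69 distinct molecular identifiers, in all 6 libraries, no D call and a CDR3 of 30 bases. It had 8, 5, 12 and 34 copies at 500 ng, 1 µg, 2.5 µg and 5 µg, 3 in Q5_Q5 and 7 in Q5_vent. These are 20.7% of the 334 productive Ighv5-15 joins. The Ighv5-17 clone with Ighj1 had 31 copies in 6 libraries, and the one with Ighj4 had 19 copies in 5. The Ighv5-6 clone is out-of-frame, with 10 copies in 5 libraries, and the Ighv5-9-1 clone is productive, with 7 copies in 5. Whether shared clones came from shared animals was not tested.

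The last comparisons set the libraries against each other, with 1 library per group and hence no test. Of 11 members with enough sequences, 0 differed by at least 1.5-fold with an interval excluding 1 between 5 µg and 500 ng, against 0.935% of V genes. The interval alone excluded 1 for 0 of 11, against 3.74% of V genes. Along the titration the members together took 6.65%, 6.83%, 6.77% and 7.04% of a library from the lowest to the highest DNA amount, and the highest over the lowest gave 1.06 (95% Katz interval 0.975 to 1.15). Single genes had ratios from 0.615 for Ighv5-6-4 (interval 0.359 to 1.05) to 1.58 for Ighv5-1 (0.694 to 3.58). Between Q5_Q5 and Q5_vent the members were 6.90% and 6.96% of sequences, a ratio of 0.992 (0.917 to 1.07). None of the 7 genes compared was called there (0% of V genes were, and the interval alone excluded 1 for 3.57%), with ratios from 0.868 for Ighv5-16 (0.706 to 1.07) to 1.32 for Ighv5-9 (0.908 to 1.92).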

How the data were processed

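The 6 VDJ-seq libraries of splenic B cell DNA were analysed, 1 per group. The authors deposited 1 table per library with a row per V(D)J sequence. The deposited identity columns are fractions, and the deposited junction and alignment lengths are in bases, per the file headers. Reads were handled with Trim Galore 0.4.4 and Bowtie2 2.3.2 on mm10, per the submitters' processing notes. For the V, D and J caller no version was found (not given in the sources used here). Members and lists were chosen with earlier results of these data known.

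Sequences were counted by first V call in Python 3.11.15 with pandas 2.3.3. V genes with at least 100 sequences and, for productive over out-of-frame shares, at least 20 out-of-frame joins were tested, with a pseudocount of 0.5. Each library gave 1 within-library value per gene, fitted with limma 3.58.1 in R 4.3.3 with precision weights. Variances were pooled over genes, with Benjamini-Hochberg adjustment over all V genes tested. Tests of partner use in percentage points, which need at least 100 joins in each class, were added after seeing the data, because log2 odds with a pseudocount are biased for sparse out-of-frame joins. Library pairs were compared by ratio with 95% Katz intervals. The genes named are the members with at least 100 sequences, with the others named by count. Scripts were tested on simulated data. Alternatives were no weights, a sign-flip permutation test, other thresholds, calls naming a single gene, at most 2 mismatches, V alignments of at least 150 bases, 1 count per clone, and each library left out. Recombination signals were not analysed here, because no genome was used. Germline bases were read from sequences without mismatches, with at least 10 sequences per base.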

Additional observations from a re-analysis of the deposited data

Results flagged for a closer look

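Up to 60 sets of 6 library values were considered, and sets lacking a value in a library were not checked. In 3 sets 1 library stood apart from the others, and chance gives about 1 in 20 of the sets checked. Ighv5-12-1, whose calls always name other genes too, took 0.215% of sequences in Q5_vent and 0.166% to 0.184% in the other libraries. Productive Ighv5-15 joins had a mean CDR3 of 32.5 bases at 500 ng and 35.8 to 37.1 bases elsewhere, and 8 of those joins at 500 ng are copies of the recurring clone. The log2 ratio of productive over out-of-frame share of Ighv5-4 was -0.31 in Q5_Q5 and -1.11 to -0.88 elsewhere.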

How the results depend on the processing

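No paired analysis was possible because groups of 1 library share no replicate numbers, so no replicate block could be set between groups. The fits themselves take each difference within a library. The 6 members called lower in productive joins stayed 6 with each library left out, and became 5 by the sign-flip permutation test (smallest p 0.03125), where Ighv5-12-1 lost its call. The 5 called higher became 2 by that test and 3 to 5 with a library left out. Calls of J use over all joins (20) became 9 without weights, 0 in out-of-frame joins and 15 to 20 with a library left out. Calls of D use (11) became 0 without weights and 8 to 12 with a library left out. CDR3 calls (9) became 3 in out-of-frame joins and 8 to 9 with a library left out. Calls of stops (7) became 5 to 9 with a library left out.

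In the tests added after seeing the data, productive D calls (3) became 1 with V alignments of at least 150 bases and 0 (without 5 µg) to 5 (without Q5_Q5) with a library left out. Out-of-frame J calls (0) became 1 without weights. Out-of-frame D calls (9) became 4 with calls naming a single gene, 1 without weights, 2 with V alignments of at least 150 bases and 3 to 7 with a library left out. J calls of the class difference (10) became 6 without weights and 7 to 9 with a library left out. D calls of that difference (4) became 2 with single-gene calls, 1 without weights and 3 to 4 with a library left out.

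For the members as one row, log2 odds lost their call without weights and by the sign-flip test for Ighj2 (-0.0623), Ighj4 (0.0560), DFL16 (-0.0963), DSP2 (0.0753), DST4 (-0.0604) and DQ52 (0.126), and by the sign-flip test for Ighj3 (-0.12). With a library left out they were -0.104 to -0.0634 for Ighj2, -0.15 to -0.10 for Ighj3, 0.07 to 0.10 for Ighj4, -0.101 to -0.0615 for DFL16, 0.0551 to 0.0915 for DSP2, -0.217 to -0.0707 for DST4 and 0.0837 to 0.17 for DQ52. For Ighj3, DFL16 and DSP2 all 6 libraries went the same way, so the unadjusted sign-flip p was the smallest possible, 0.03125. The adjustment over families alone removed these calls, so their loss by the sign-flip test decides nothing. Out-of-frame joins turned the CDR3 difference of Ighv5-12-1 (-1.32 bases), Ighv5-4 (-0.33), Ighv5-6 (-1.25) and Ighv5-9-1 (-0.63). They also turned the log2 odds for the pairs Ighv5-12, Ighj2 (0.0193) and Ighv5-12, Ighj4 (-0.13), and for Ighv5-15, Ighj3 (0.11), Ighv5-16, Ighj3 (0.0225) and Ighv5-17, Ighj3 (0.0664). The cause was not tested.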
